A study of Homo sapiens with 7 samples.

Results

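Nascent RNA of human RPE1 cells was examined at 675 replication origins whose centres lie more than 20000 bp from the start site of the nearest gene. They were taken from a deposited list of 2040 origin centres mapped by sequencing Okazaki fragments (OK-seq). The list's title marks it as a selection in which a stretch upstream of the start site is empty. The part of this selection in the low signal described below was not tested. The labels do not say in which cells these origins were mapped. Of 682 listed origins beyond 20 kb, 675 had values in all 6 origin tables. These tables shared 4767 origin windows, of which 2032 were listed origins. The list gives each centre a signed distance to a start site. It is negative for 380 origins that lie before the start in the direction of transcription, called upstream here, and positive for 295 that lie after it, called downstream. The median distance was 33241.5 bp for upstream and 74562 bp for downstream origins.

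The assay was BrU-seq: cells took up bromouridine (2 mM) for 30 min, and the RNA they had made in that time was pulled down through the label and sequenced. RPE1 is an immortalised line of retinal pigment epithelium. All cells carry the label iCas9 p53/puro-dKO, so the wild-type (WT) cells also lack p53, and the other group lacks CFAP20 (CFAP20-KO), which is best known as a component of cilia. Origin tables were used for 3 WT and 3 CFAP20-KO libraries. The rescue library (CFAP20-KO cells with CFAP20-GFP) was not analysed here. The labels do not say whether the CFAP20-KO cells are 1 clone, or whether replicates are separate cultures, so each p-value measures only the spread between these libraries. Less RNA per cell and fewer cells making it cannot be told apart.

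DNA replication starts at origins, where a pair of forks leaves in opposite directions. In human cells efficient origins often lie beside active genes, in the gaps between transcribed regions. RNA polymerase that moves away from an origin travels with the fork, and RNA polymerase that moves towards it meets a fork head-on. In the windows used here, transcription runs from left to right, so signal before the centre comes from polymerase moving towards the origin and signal after the centre from polymerase moving away from it.

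The DNA at these centres was unlike the DNA of promoters. In 300 bases around each centre (hg38), the median GC content was 40.3%, with a median of 2 CG dinucleotides, and 15 of 675 origins (2.22%) held 10 or more CG. Listed origins within 20 kb of a start had a median GC content of 43.7%, and 8.11% of 1357 held 10 or more CG. Of 35116 RefSeq promoters of the same length (GRCh38.p14), 56.4% did. In 20 kb around the centres the median GC content was 40.4%, close to that of the 300 bases, and 43.4% around nearer listed origins. Centres lie on a 500-bp grid, so they are not placed to the base. The search was for the letters CG, which read the same on both strands, so both strands are covered. The centres of 2 origins, named by their nearest genes CBR4 and C20orf85, are shown 5′ to 3′ from hg38, with each CG in capitals, because the results return to them. By the naming rule they lead the origins with higher and, outside untranslated regions, with lower centre signal in CFAP20-KO than in WT, neither past the test's threshold.
CBR4 origin, chr4:169042851-169043150, plus strand: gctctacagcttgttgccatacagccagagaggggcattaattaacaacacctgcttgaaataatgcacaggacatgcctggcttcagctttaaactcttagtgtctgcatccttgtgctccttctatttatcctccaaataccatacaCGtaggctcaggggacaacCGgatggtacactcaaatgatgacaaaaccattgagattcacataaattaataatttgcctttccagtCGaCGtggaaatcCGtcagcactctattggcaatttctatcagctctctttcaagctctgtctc
C20orf85 origin, chr20:58124851-58125150, plus strand: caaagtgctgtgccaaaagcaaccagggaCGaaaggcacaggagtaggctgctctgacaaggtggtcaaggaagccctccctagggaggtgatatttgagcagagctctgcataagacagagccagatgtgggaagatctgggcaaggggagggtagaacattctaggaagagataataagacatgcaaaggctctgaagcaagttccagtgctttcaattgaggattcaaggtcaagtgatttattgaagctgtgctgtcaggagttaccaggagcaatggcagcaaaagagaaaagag
The CBR4 centre holds 5 CG and the C20orf85 centre 1.

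Most of these origins lay outside annotated genes and were close to silent. By GENCODE 44, 474 centres (70.2%) were in no coding gene and no lncRNA, 103 (15.3%) only in a lncRNA, 78 (11.6%) in a coding gene of the window's strand and 20 (2.96%) in a coding gene of the opposite strand. Signal is coverage of the transcribed strand in 200-bp bins, as scaled by the authors, and was averaged here over each region. What it was scaled to is not given. Within 10 kb of the centre the mean of the 6 libraries had a median of 0.0400 over the 675 origins, against 0.318 over the 1357 nearer origins. It was below 0.1 at 430 origins (63.7%; nearer origins 36.3%) and at least 1 at 39 (5.78%; nearer origins 33.8%). No signal in any library was seen at 25 origins (3.70%), and 410 (60.7%) had signal in all 6. The 10 highest origins held 34.0% of the summed signal, so medians are given beside means.

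The 2 sides had mirrored profiles. At upstream origins the median signal 10 to 50 kb before the centre was 0.0330, 0.0227 and 0.0495 in WT replicates 1 to 3 and 0.0177, 0.0240 and 0.0279 in CFAP20-KO replicates 1 to 3. It was 0.0267, 0.0232 and 0.0397, and 0.0156, 0.0206 and 0.0214, within 10 kb of the centre. At 10 to 50 kb after the centre it was 0.254, 0.238 and 0.286, and 0.185, 0.236 and 0.262. Signal was thus low up to the origin and high after it in every library. At the centre all 3 CFAP20-KO medians lay below all 3 WT medians (WT 0.0299 ± 0.00870 and CFAP20-KO 0.0192 ± 0.00315, SD, n = 3 each). The groups overlapped on either flank. With means over the origins in place of medians they overlapped at the centre too. The log2 of these means was -2.00, -2.25 and -1.50 in WT and -2.53, -2.11 and -2.12 in CFAP20-KO.

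**Figure D1:**
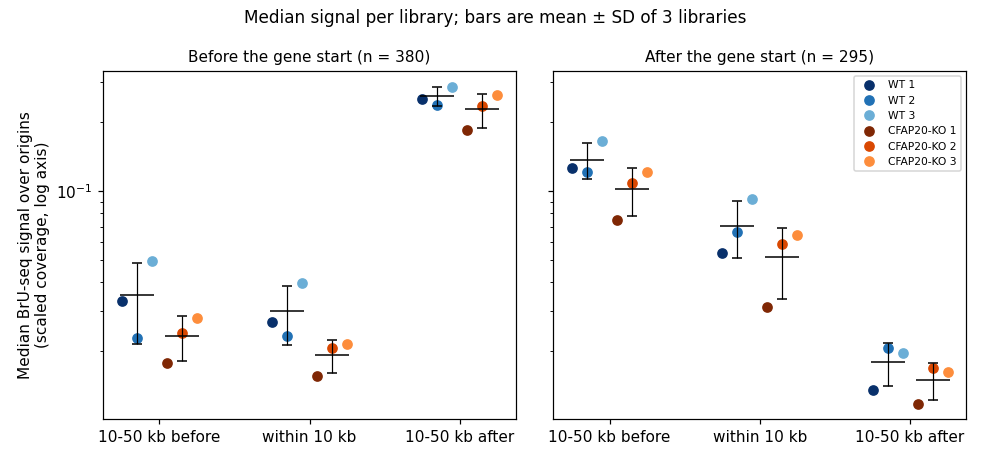
Median signal over the 380 upstream (left) and 295 downstream (right) origins in 3 regions along transcription, on a log axis. Points are libraries and bars are mean ± SD of 3 libraries per group; the upstream median at the centre is 0.0232 to 0.0397 in WT and 0.0156 to 0.0214 in CFAP20-KO.

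At downstream origins the WT medians before the centre were 0.126, 0.121 and 0.165, and the CFAP20-KO medians 0.0747, 0.109 and 0.122. Within 10 kb of it, the values were 0.0535, 0.0661 and 0.0924, and 0.0312, 0.0586 and 0.0642. After the centre they were 0.0135, 0.0205 and 0.0196, and 0.0118, 0.0168 and 0.0162. Signal thus stepped down across the origin in all 6 libraries, and the groups overlapped in all 3 regions. Replicate 1 was the lowest CFAP20-KO library in each of them.

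On the log2 scale, the median centre signal of CFAP20-KO minus that of WT was -0.62 upstream, and -0.49 downstream. It was -0.78 upstream and -0.78 downstream between the replicates numbered 1. It was -0.92 and -0.59 between WT replicate 3 and the mean of CFAP20-KO replicates 2 and 3. Each of these sets of libraries shares a number that is taken here as a sequencing run. With means in place of medians the difference at the centre was -0.34 upstream and -0.36 downstream. The ratio of after to before differed by 0.35 upstream and 0.20 downstream, but by 0.0098 upstream with narrower regions (neighbours at 5 to 25 kb) and by 0.14 without WT replicate 3. Downstream it turned to -0.21 with wider regions (20 to 100 kb) and to -0.072 with means in place of medians. The ratio of the centre to its neighbours differed by -0.38 upstream and -0.065 downstream. The upstream difference between the groups turned to 0.33 with the narrower regions.

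Single origins varied. Signal after the centre exceeded signal before it in all 6 libraries at 183 of 380 upstream origins (48.2%), and the opposite held at 75 (19.7%). This excess came from the 242 origins at 20 to 50 kb, with 158 against 37. At 50 to 100 kb, 12 had more signal after and 24 more before, and over 100 kb the counts were 13 and 14. At downstream origins, signal before exceeded signal after in all 6 libraries at 156 of 295 (52.9%), and the opposite at 55 (18.6%). Where the distance is under 50 kb the gene's own start lies in the region compared, so this direction is partly set by how the origins were chosen. The strands were not equal: 195 of 295 downstream origins but 209 of 380 upstream origins were on the minus strand. Downstream origins on the minus strand had before above after in 122 of 195 (62.6%), and those on the plus strand in 34 of 100 (34.0%).

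The high signal of upstream origins began at the gene start, not at the origin. At 315 upstream origins with the start up to 90 kb away, signal in the first 10 kb of the gene averaged 6.48 ± 0.322 in the 3 WT and 6.48 ± 0.242 in the 3 CFAP20-KO libraries (mean ± SD). In the 10 kb before the start it averaged 0.270 ± 0.113 and 0.208 ± 0.0160. The mean at the origin centre was 0.292 ± 0.0842 and 0.228 ± 0.0366. Active starts, with at least 1 unit of signal in the first 10 kb, served 197 of these origins. There the medians were 5.30 ± 0.0916 and 5.56 ± 0.154 at the start, where a high level is set by that choice. They were 0.0334 ± 0.0106 and 0.0216 ± 0.00191 at the centre. The typical origin ahead of an active gene thus had little signal of its own.

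**Figure D2:**
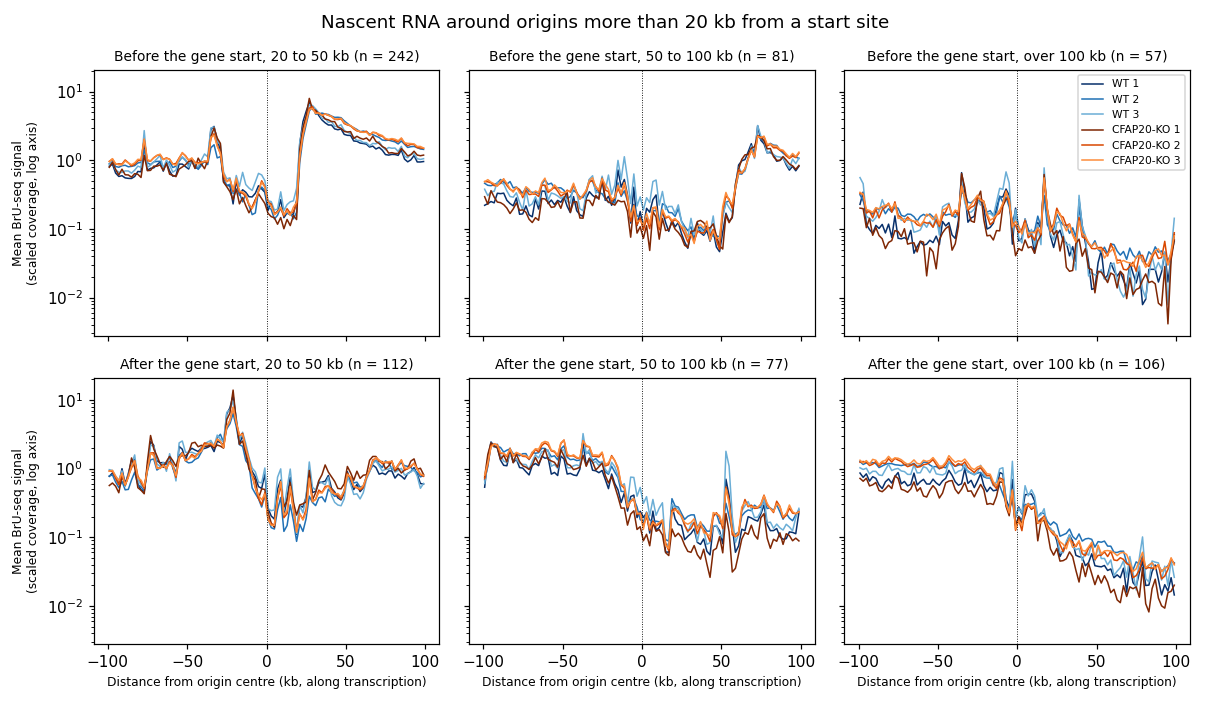
Mean signal along the window, in 2-kb steps on a log axis, for upstream (top) and downstream (bottom) origins by distance to the start, with 1 line per library. At 20 to 50 kb upstream the mean rises from 0.203 to 0.382 within 10 kb of the centre to between 2.95 and 3.17 after it. At over 100 kb downstream it declines across the centre, from 0.483 to 1.07 before it to 0.0734 to 0.139 after it.

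Distance to the start changed the flanks more than the centre. Among 242 upstream origins at 20 to 50 kb, the median centre signal was 0.0292 ± 0.00780 in WT and 0.0201 in CFAP20-KO, and 92 of them (38.0%) had less signal at the centre than on both flanks in all 6 libraries. The 81 origins at 50 to 100 kb had 0.0425 ± 0.0243 and 0.0350. The 57 origins over 100 kb upstream had 0.0238, 0.0232 and 0.0296 in WT and 0.00779, 0.0127 and 0.0143 in CFAP20-KO, so that the groups did not overlap. Downstream, the median centre signal was 0.0974 ± 0.0254 and 0.0688 for 112 origins at 20 to 50 kb, 0.0729 ± 0.0298 and 0.0565 for 77 at 50 to 100 kb, and 0.0522 ± 0.00609 and 0.0374 for 106 over 100 kb. The groups also did not overlap upstream at 20 to 50 kb (WT 0.0229 to 0.0379, CFAP20-KO 0.0175 to 0.0223). The same held downstream over 100 kb (WT 0.0460 to 0.0582, CFAP20-KO 0.0234 to 0.0446). They overlapped in the other classes.

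Beyond 50 kb no listed start lies within 50 kb of the centre, and there weak signal was centred on the origin itself. In equal 20-kb bins, the 138 upstream origins had a median of 0.0267, 0.0247 and 0.0416 in WT and 0.0117, 0.0214 and 0.0205 in CFAP20-KO at the centre. In the bin 40 kb before it, the medians were 0.00220 ± 0.00195 in WT and 0.00224 ± 0.00195 in CFAP20-KO, and in the bin 40 kb after it 0.00275 ± 0.00243 and 0.00224 ± 0.00195. Over all 138 the centre bin was the highest of the window's bins in all 6 libraries, but for the 81 of them at 50 to 100 kb the bin 80 kb after the centre, which can hold the gene's start, was higher, with 0.148 to 0.261 against 0.0247 to 0.0702 at the centre. Over all 138 the centre bin also had the fewest origins without signal, 18.4% ± 5.53 in WT and 26.1% ± 11.9 in CFAP20-KO, against 46.1% ± 9.78 and 52.9% ± 11.4 in the bin 40 kb after it.

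**Figure D3:**
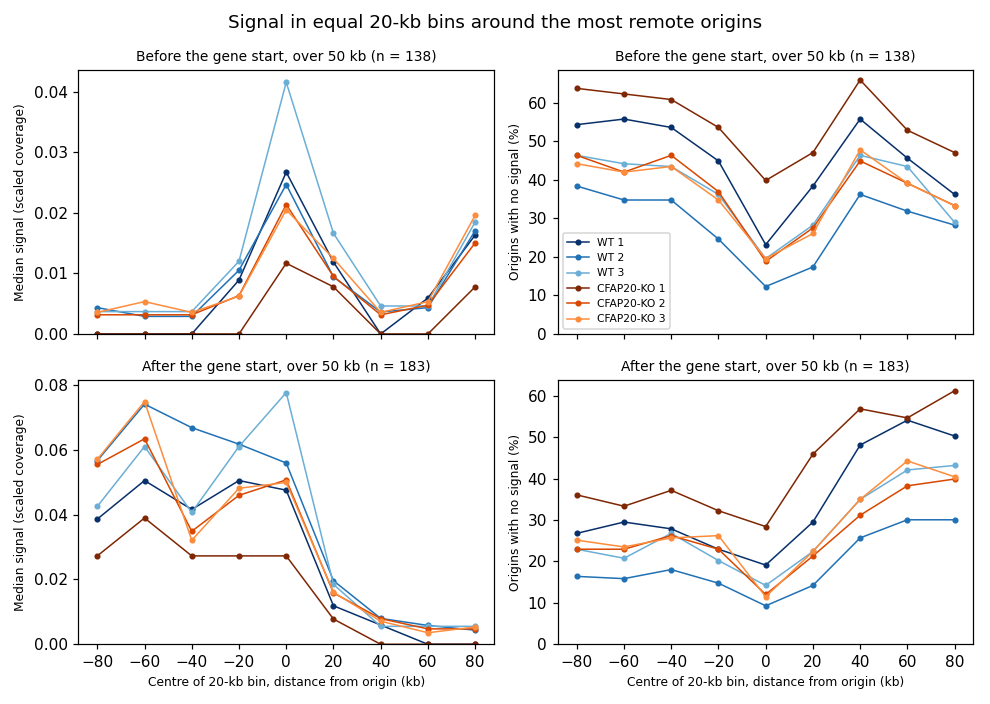
Median signal (left) and percentage of origins with no signal (right) in 20-kb bins for 138 upstream (top) and 183 downstream (bottom) origins over 50 kb from the start, with 1 line per library. The upstream median peaks in the centre bin, and the share without signal is lowest in the centre bin on both sides in all 6 libraries.

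The 183 downstream origins over 50 kb had a step rather than a peak. In the bin 20 kb before the centre the WT medians averaged 0.0577 ± 0.00628 and the CFAP20-KO medians 0.0404 ± 0.0115, and 0.0604 ± 0.0155 and 0.0426 ± 0.0133 in the centre bin. It was 0.0167 ± 0.00417 and 0.0132 ± 0.00470 in the bin 20 kb after it. The 2 distance classes differed. At 50 to 100 kb the centre bin (0.0467 to 0.107) exceeded the bins 20 kb before (0.0312 to 0.0545) and after it in all 6 libraries. The bin 60 kb before was higher still, with 0.140 to 0.220. Over 100 kb the bin 20 kb before (0.0253 to 0.0906) exceeded the centre bin (0.0234 to 0.0582) in all 6. Over all 183 the centre bin had the lowest share of origins without signal in all 6 libraries, 9.29% to 28.4%. Shares of zeros depend on the size of 1 signal step, which is smallest in WT replicate 2 (0.0733) and largest in CFAP20-KO replicate 1 (0.393), and these libraries have the lowest and the highest shares.

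Part of the decline at downstream origins lay past the ends of genes. The nearest gene was protein-coding, with a start matched in GENCODE 44, at 160 downstream origins. In 53 of them the centre was 0 to 20 kb past the gene's end, and the median signal there was 1.85 ± 0.121 in WT and 1.99 ± 0.593 in CFAP20-KO before the centre, 0.190 ± 0.0167 and 0.188 ± 0.0613 at it, and 0.0244 ± 0.00334 and 0.0267 ± 0.00345 after it. Past the end by 20 to 50 kb, 40 origins had 0.0435 ± 0.00408 and 0.0294 ± 0.00774 at the centre. By over 50 kb, 31 origins had 0.0314 ± 0.00848 and 0.0159 ± 0.00799. Inside the gene, 36 centres had 0.156 ± 0.0242 and 0.0966 ± 0.0410.

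The highest upstream origin lay on the minus strand of chromosome 9, with its centre in no annotated gene and 20 to 50 kb before the start of MIR31HG, the lncRNA host of the microRNA miR-31. Its centre signal was 12.6, 26.4 and 19.3 in WT and 8.90, 28.3 and 27.0 in CFAP20-KO. Signal appeared abruptly near the centre: it was 0.0149 to 0.0780 in the bin from 20 to 10 kb before it and 9.55 to 32.3 in the last 10 kb before it. It then ran on into MIR31HG, with 14.3 to 70.7 in the bin from 30 to 40 kb after the centre. Replicate 1 of both groups was the lowest library of its group, and the groups overlapped (log2 change 0.025, SE 0.53, limma adjusted p = 0.990).

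The other high upstream origins are nearest to LIF-AS1 (an RNA antisense to the cytokine gene LIF), UACA, LOC105372977 and MYO16-AS1, and their groups overlapped too. Near LIF-AS1, at -23193 bp from its start, the centre signal was 7.97, 2.12 and 7.10 in WT and 4.24, 3.75 and 3.32 in CFAP20-KO. That signal lay before the centre: the last 10 kb before it had 4.09 to 15.0 and the first 10 kb after it 0.202 to 1.04. The highest downstream origin is inside the lncRNA ZMIZ1-AS1 on the minus strand and had 19.1, 5.66 and 13.3 in WT and 17.1, 9.29 and 8.28 in CFAP20-KO. Signal there was 0.0160 to 0.132 in the bin from 30 to 20 kb before the centre and 6.31 to 25.8 in the last 10 kb before it. It was not confined to the centre. Over 10 to 50 kb it was 1.09 to 4.43 before the centre and 0.839 to 2.55 after it, below the centre signal in every library. The next downstream origins are nearest to DNAJB12 (an endoplasmic reticulum co-chaperone, with the centre in the gene), ASB9P1, MIR3162 and LOC101928775. At all 10 of these origins the limma adjusted p for the centre was 0.808 or more.

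**Figure D4:**
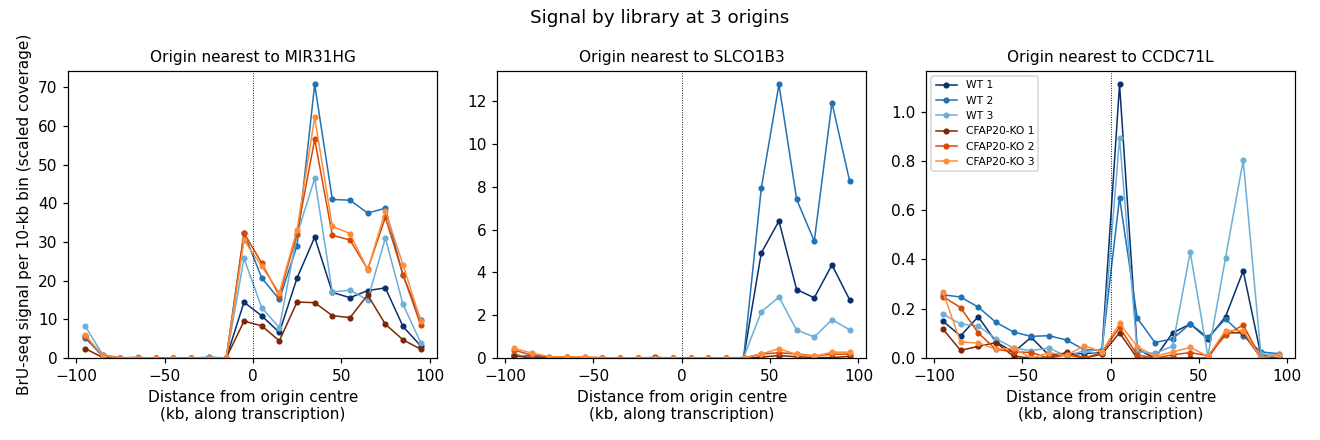
Signal in 10-kb bins along transcription at the origins nearest to MIR31HG, SLCO1B3 and CCDC71L, with 1 line per library and a separate linear axis for each. Near SLCO1B3 the WT libraries reach 2.85 to 12.8 in the bin 50 to 60 kb after the centre and the CFAP20-KO libraries 0.118 to 0.436.

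CFAP20-KO and WT were compared at each origin with limma on log2(signal + pseudocount), fitted over all windows with enough signal, with Benjamini-Hochberg adjustment over all of them. At the centre 3880 windows were tested, among them 471 of the 675 origins. With an adjusted p under 0.05 as the threshold, 0 origins were higher and 0 lower, as for all windows (0.0% each), and the smallest adjusted p was 0.0907. At an unadjusted p under 0.05, 14 origins were higher (2.97%, against 2.55% of all windows) and 77 lower (16.3%, against 8.3%). All 3 CFAP20-KO values lay below all 3 WT values at 95 origins (20.2%, against 11.7% of all windows) and above them at 18 (3.82%, against 6.24%). The median log2 change was -0.37 over the tested origins and -0.088 over all tested windows.

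The lower centre signal was seen at every level of signal. Among origins with a mean centre signal of 1 or more, the median log2 change was -0.33 over 39 origins and 0.040 over 1261 other windows. At 0.2 to 1 it was -0.28 over 134 and -0.093 over 932, at 0.05 to 0.2 it was -0.47 over 144 and -0.22 over 675, and below 0.05 it was -0.38 over 154 and -0.22 over 541. Of the 471 origins 69.2% had a negative change, against 54.4% of the other windows. Upstream and downstream origins had medians of -0.39 and -0.34.

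**Figure D5:**
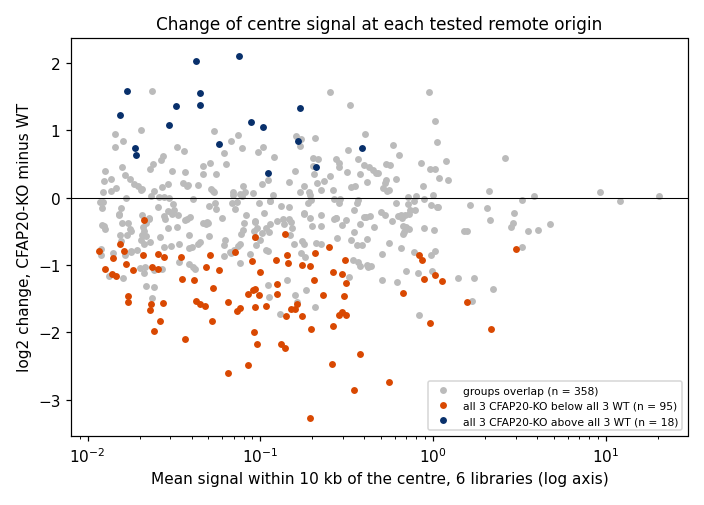
Log2 change of centre signal, CFAP20-KO minus WT, against the mean centre signal of 6 libraries on a log axis, for the 471 tested origins. All 3 CFAP20-KO values are below all 3 WT values at 95 origins (orange) and above them at 18 (blue).

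The libraries carry a number, taken here as a sequencing run from the deposited splicing table's column names. It groups WT replicate 1 with CFAP20-KO replicate 1, and WT replicate 3 with CFAP20-KO replicates 2 and 3. WT replicate 2 shares its number with the rescue library and is alone in its run among the libraries compared here. The labels do not call the number a run, and it was assumed to hold for the origin tables too. Within the first of these runs the median log2 change at the centre was -0.48 for the 471 origins and -0.097 for the other windows. Within the other it was -0.66 and -0.34. With the run as a covariate, 127 origins were lower (27.0%, against 20.5% of all windows) and 15 higher (3.18%, against 3.79%) at an adjusted p under 0.05. After centring the libraries on their medians as well, 83 were lower (17.6%, against 11.2% of all windows) and 39 higher (8.28%, against 16.5%). Alone in its run, WT replicate 2 cannot inform the group difference once runs are modelled. The spread left comes from disagreement between the other runs and from CFAP20-KO replicates 2 and 3. Those replicates were close, with log2 median upstream centre signals of -5.60 and -5.55, against -6.00 in replicate 1. Counts that model the run, here and below, thus rest on little independent spread. Without WT replicate 2, and with no covariate, 13 origins were lower (2.76%, against 1.62%) and 0 higher (0.0773% of windows).

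On the flanks the shift was smaller. Before the centre, 0 of 506 tested origins passed in either direction (0.0% of 3841 windows each), with 67 lower (13.2%, against 7.45% of all windows) and 12 higher (2.37%, against 2.84%) at an unadjusted p under 0.05. All 3 CFAP20-KO values lay below all 3 WT values at 80 origins (15.8%, against 10.6% of windows) and above them at 19 (3.75%, against 6.61%). The median log2 change was -0.21, against -0.041 over all windows. After the centre, 1 of 481 origins was lower (0.124% of 4047 windows were) and 0 were higher (0.0247% of windows), with 52 lower (10.8%, against 5.81%) and 24 higher (4.99%, against 5.98%) at an unadjusted p under 0.05. Groups did not overlap at 77 lower (16.0%, against 8.65% of windows) and 34 higher origins (7.07%, against 11.9%). Here the median was -0.060 over the origins and 0.11 over all windows. With the run as a covariate, 100 origins were lower and 15 higher before the centre (15.0% and 4.14% of windows), and 65 lower and 34 higher after it (9.98% and 13.1%). With libraries centred as well, 64 were lower and 57 higher before the centre (8.51% and 14.8% of windows), and 78 lower and 21 higher after it (12.1% and 8.9%).

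The ratio of signal after to before the centre had shares close to those of all windows. Of 569 tested origins 1 was lower (0.0224% of 4472 windows were) and 0 higher (0.0% of windows), with 49 higher (8.61%, against 7.2%) and 30 lower (5.27%, against 4.03%) at an unadjusted p under 0.05. Groups did not overlap at 75 higher (13.2%, against 11.2% of windows) and 44 lower origins (7.73%, against 7.11%). The median log2 change of the ratio was 0.11 over the origins and 0.12 over all windows. With the run as a covariate, 36 were higher and 15 lower (5.12% and 1.95% of windows), and 31 and 19 with libraries centred as well (4.29% and 2.37%).

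The single origin that passed lies at chr12:20775001 on the plus strand, at -35704 bp from the start of SLCO1B3, which encodes a liver-type uptake transporter of organic anions. Signal 10 to 50 kb after its centre was 1.25, 2.08 and 0.575 in WT and 0.0118, 0.0504 and 0.0504 in CFAP20-KO, so that the groups lay far apart. It fell by a log2 change of -4.84 (SE 0.61, limma adjusted p = 0.0202), and the ratio of after to before by -5.99 (SE 0.58, limma adjusted p = 0.0135). This signal lay past the gene's start: all 6 libraries had 0.0224 or less in each 10-kb bin from the centre to 40 kb after it, and from 40 to 50 kb the WT libraries had 2.16 to 7.92 and the CFAP20-KO libraries 0.0472 to 0.192. Within runs the log2 change after the centre was -6.03 and -3.33. The change kept its sign in every refit without 1 library, but the call was lost without WT replicate 1 (log2 change -4.78, adjusted p = 0.155), without WT replicate 2 (-4.42, adjusted p = 0.106) and without CFAP20-KO replicate 1 (-4.31, adjusted p = 0.0616).

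The origins with the largest lower values at the centre did not pass the test, and none is a member of the gene lists used here. At chr9:114901501, in TNFSF8 (the ligand of the receptor CD30), the centre signal was 0.469, 0.389 and 0.224 in WT and 0.00779, 0.0459 and 0.0339 in CFAP20-KO (log2 change -3.27, SE 0.53, limma adjusted p = 0.0907). At chr7:106492501, whose nearest listed start is that of CCDC71L, it was 0.564, 0.341 and 0.449, and 0.0584, 0.0729 and 0.0820 (log2 change -2.47, SE 0.39, limma adjusted p = 0.0907). At chr9:19998001, far before SLC24A2, a gene for a potassium-dependent sodium and calcium exchanger, it was 0.820, 0.576 and 0.516, and 0.0896, 0.124 and 0.139 (log2 change -2.32, SE 0.39, limma adjusted p = 0.0907). Origins were named from among those whose groups do not overlap, so the separation of these groups is set by that choice.

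WT values spread more widely near PODXL, which encodes the surface sialomucin podocalyxin, and near C20orf85. Near PODXL, at chr7:131629001, the centre signal was 1.32, 0.235 and 1.45 in WT and 0.156, 0.0760 and 0.0980 in CFAP20-KO (log2 change -2.74, SE 0.69, limma adjusted p = 0.199). At the C20orf85 origin, whose sequence is shown above, it was 1.01, 0.734 and 0.152 in WT and 0.0234, 0.108 and 0.0677 in CFAP20-KO. Its log2 change was -2.85 (SE 0.75, limma adjusted p = 0.209), with -4.87 between the replicates numbered 1 and -0.75 between WT replicate 3 and CFAP20-KO replicates 2 and 3.

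Higher values in CFAP20-KO were fewer and smaller, and only 4 origins met the naming rule. At the CBR4 origin, shown above and named for a mitochondrial carbonyl reductase gene, the centre signal was 0.0891, 0.139 and 0.0462 in WT and 0.386, 0.144 and 0.219 in CFAP20-KO (log2 change 1.34, SE 0.52, limma adjusted p = 0.399). Signal before its centre was also higher in all 3 CFAP20-KO libraries, 3.04 to 4.12 against 1.54 to 1.79. Near PDLIM5, which encodes a PDZ and LIM domain protein of the actin cytoskeleton, the centre had 0.116, 0.0980 and 0.131 in WT and 0.203, 0.233 and 0.210 in CFAP20-KO (log2 change 0.85, SE 0.37, limma adjusted p = 0.456). The others, nearest to LOC101927571 and MIR4440, had log2 changes of 0.74 and 0.46.

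The ratio of after to before was higher in all 3 CFAP20-KO libraries near LINC01435 (log2 change 2.47), PDLIM5 (2.22) and PREP (1.86), a prolyl peptidase gene, but not past the threshold (limma adjusted p of 0.137 to 0.342). In these 3 the signal before the centre was near 0, at most 0.0653 in any library. It was lower near MIR3162 (-1.91), ADGRG6 (-1.53), an adhesion receptor gene, and the immediate early gene IER5 (-1.34), also not past the threshold (0.234 to 0.351). Near MIR3162 the signal after the centre was 0.332, 0.126 and 0.373 in WT and 0.0747, 0.0856 and 0.101 in CFAP20-KO, while that before it was 3.60 to 4.11 and 4.78 to 5.73.

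Few of these origins belonged to genes of the 3 lists examined. Of 30 long and fragile-site genes, ROBO1, an axon guidance receptor, held 1 centre, and NBEA, FOXP1 and ROBO1 were the nearest genes of 5 origins, whose centre signal was 0 to 0.0554 in every library. Of 30 matrix and adhesion genes, FBN1, CDH2, ADAMTS1, ITGAV and EDIL3 were nearest to 1 origin each. Of these the CDH2 origin had the highest signal in each of the 6 libraries, with 0.392, 0.538 and 0.475 in WT and 0.284, 0.445 and 0.440 in CFAP20-KO, and the FBN1 origin had 0.187, 0.235 and 0.442, and 0.148, 0.339 and 0.374. Of 26 replication genes only ORC5, a subunit of the origin recognition complex, was nearest to an origin, with 0.0357, 0.0479 and 0.0388, and 0.0117, 0.0570 and 0.0339. No origin of the lists had groups that did not overlap at the centre.

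The 20-kb limit cuts through a continuum. The origins just inside it, nearest to SECISBP2L, LINC00578 and RAB10 at -20055, 20080 and -20083 bp, had mean centre signals of 0.0512, 0.0619 and 0.0310. Those just outside, nearest to RAB21, DOCK1 and INPP4B at -19862, -19908 and -19966 bp, had 0.0655, 0.00364 and 0.0128. The distances are the list's own. By GENCODE 44, a coding start on either strand lay within 20 kb of 30 of the 675 centres (4.44%), and the nearest listed start was matched within 1000 bp at 578 (85.6%).

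The tables give no read depth. Mean signal over all 4767 windows was 1.48 to 1.69 per library. In the windows of these origins, bins in coding genes of the window's strand averaged 2.62 to 3.29 and bins in coding genes of the other strand 0.124 to 0.207. CFAP20 is in no listed window, so its loss was not checked here. Of the marker lists only 6 genes could be measured, and in 2 of them every CFAP20-KO library was below every WT library. The neuronal gene MAP2 had 2.77, 4.95 and 3.34 in WT and 0.999, 1.86 and 1.75 in CFAP20-KO, and RLBP1, of the retinal pigment epithelium, 0.356, 0.127 and 0.174, and 0.107, 0.0163 and 0.0427. Groups overlapped for SYT1 (neuronal, 2.25 to 6.70), S100A4 (mesenchymal, 0.729 to 2.81), CD14 (monocytes, 0 to 0.918) and ELF3 (epithelial, 0.112 to 0.613). Their part in the results was not tested.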

How the data were processed

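BrU-seq signal around replication origins was analysed in 3 WT and 3 CFAP20-KO libraries of RPE1 cells. The values deposited are signal, that is coverage of the transcribed strand in bins of 200 bp from 100 kb before to 100 kb after each origin centre, which the authors scaled per library. HOMER 4.8.2, STAR 2.7.7a, R 4.0.5, SAMtools 1.11, Trim Galore 0.6.5, FastQC 0.11.9 and the build hg38 are named in the submitters' processing notes. Read depth is unknown, and values were not treated as counts. The deposited splice table, whose index is a fraction, served only for the number in its column names, which was taken as a run.

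Signal was averaged within 10 kb of the centre, from 10 to 50 kb before and after it, and in 20-kb bins. Windows whose mean reached a pseudocount, the 10th percentile of non-zero values (centre 0.0116, before 0.00467, after 0.00752, ratio 0.0059), were tested with limma 3.58.1 in R 4.3.3 (trend, robust, statmod 1.5.0), two-sided, 3 against 3 libraries. On the scale used, log2(signal + pseudocount), changes of low origins are understated. In data simulated from these tables with independent noise in each library, changes were planted in a small part of 3880 windows. At the centre 56.7% of changes of 2 on the log2 scale were recovered, and 1.49% of changes of 1. The real libraries share deviations, so recovery in them can differ.

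Named were the 5 origins per side with the highest centre signal, and up to 5 rises and falls at the centre and 3 of the ratio among origins whose groups did not overlap and whose mean was in the upper part of those tested. The origin that passed the test was added after its values were seen. Origins and lists were chosen with earlier results of these data known. Alternatives covered the pseudocount, the filter, the region size, library centring, the run, the replicate number and leaving out each library. The centre sequences of the origins with the highest signal are not reported here.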

Additional observations from a re-analysis of the deposited data

How the results depend on the processing

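Same-numbered replicates deviated together at 0.56, 0.28 and 0.095 (correlation at the centre). The first 2 were above the limit of 0.1 set for pairing and the last was below it. WT replicate 3, which shares a run number with CFAP20-KO replicates 2 and 3, had 0.062 and 0.095 with them. WT replicate 2, of another run, had 0.28 and 0.30. At the centre, WT replicate 2 thus deviated with those replicates more than WT replicate 3 did. The main test did not take the numbers as pairs. With the replicate block, origins past the threshold numbered 18 lower and 2 higher before the centre (3.56% and 0.395%, against 1.93% and 0.989% of windows) and 15 lower and 3 higher after it (3.12% and 0.624%, against 2.52% and 2.62%). With the replicate block and centred libraries they were 38 lower and 13 higher at the centre (8.07% and 2.76%, against 4.05% and 3.66%), 33 and 12 before it (6.52% and 2.37%, against 3.33% and 3.12%), and 28 and 3 after it (5.82% and 0.624%, against 4.0% and 1.75%). Pairs with the block gave no other count that differed by over 1.5 times. The run covariate gave 127 lower and 15 higher at the centre, 100 and 15 before, 65 and 34 after, and 15 and 36 for the ratio. With centred libraries too, added after seeing the data, it gave 83 and 39, 64 and 57, 78 and 21, and 19 and 31. WT replicate 2, alone in its run, does not inform the group difference in these counts. Centring alone gave 3 lower before the centre (0.593%, against 0.234%). Averaging CFAP20-KO replicates 2 and 3, with no covariate, gave 0 lower and 0 higher at the centre (0.0% of windows each). After the centre it gave 1 lower (0.208%, against 0.0247%) and 0 higher (0.0% of windows).

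Leaving out 1 library gave 0 to 13 lower at the centre (13 without WT replicate 2), and 0 to 1 lower after it and for the ratio, with 0 without WT replicate 1, WT replicate 2 or CFAP20-KO replicate 1. Narrow regions, which end before the SLCO1B3 start, gave 0 lower after the centre and for the ratio, and wide regions 2 lower after it.

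For the difference of medians, CFAP20-KO minus WT on the log2 scale, the upstream ratio of after to before was 0.73 between WT replicate 3 and CFAP20-KO replicates 2 and 3 and 0.0098 with narrow regions. The downstream ratio was 0.56 between the replicates numbered 1, -0.072 with means and -0.21 with wide regions. The centre to its neighbours was -0.63 upstream between WT replicate 3 and CFAP20-KO replicates 2 and 3, 0.33 with narrow and -0.67 with wide regions. Downstream it was -0.38 with means and -0.49 with means over all but the 10 highest origins, added after seeing the data. Without 1 library, the centre differed by -0.78 to -0.39 upstream and by -0.69 to -0.17 downstream. The ratio of after to before differed by 0.14 to 0.57 and by 0.060 to 0.39. The centre to its neighbours differed by -0.46 to -0.25 and by -0.18 to 0.059. The cause of these shifts was not tested. The other 167 values of these counts and differences stayed within the limits set. The size of 1 signal step, which differs between libraries, limits what can be seen at the lowest origins.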
